A study of Bos taurus with 18 samples.

Results

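The miRNAs described here are the mature members of the miR-23, miR-24 and miR-27 clusters that the deposited tables list, namely bta-miR-23a, bta-miR-23b-3p, bta-miR-24-3p, bta-miR-27a-3p and bta-miR-27b. They are 5 of the 1071 miRNAs measured, and the rule that picks them uses names, although these clusters were chosen for description with earlier results of the same data known. Small RNA was sequenced from the plasma of 3 Japanese Black steers, each sampled in turn at about 20, 25 and 30 months of age while being fattened. A commercial kit separated each of the 9 plasma samples into an exosomal (EX) and a free-circulating, non-exosomal (FC) RNA fraction, which gave 18 libraries in 6 groups of 3. No group carried a treatment or an altered allele, all groups came from the same 3 animals, and age cannot be told apart from the date of sampling. The kit fractions are operational: the count tables hold no measure of vesicle purity.

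A miRNA guides a silencing complex to messenger RNAs through its seed, bases 2 to 8 from its 5′ end, so that miRNAs with one seed share most of their targets. Mammalian genomes carry these miRNAs as a pair of short clusters, each with one miR-23, one miR-27 and one miR-24 hairpin that can be transcribed together. Both clusters are known for their activity in blood vessel lining cells. miR-27 is known to restrain the formation of fat cells, with the fat-cell regulator PPARγ among its targets, and miR-24 is known as a regulator of the cell cycle and of cell survival. In the RefSeq annotation of cattle, MIR27A lies between MIR23A and MIR24-2, and MIR27B lies between MIR23B and MIR24-1. The first group lies within the gene LOC132345691 and the second within the gene AOPEP. Both miR-24 hairpins give one mature bta-miR-24-3p, which therefore cannot be assigned to either cluster.

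The sequences of the count table are shown with the seed in capitals, since they decide which members can be told apart by a short read and which share targets.
bta-miR-23a: aUCACAUUgccagggauuucca
bta-miR-23b-3p: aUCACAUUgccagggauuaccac
bta-miR-24-3p: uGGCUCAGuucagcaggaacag
bta-miR-27a-3p: uUCACAGUggcuaaguuccg
bta-miR-27b: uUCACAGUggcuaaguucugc
bta-miR-10174-3p: aUCACAUUgccagggauuaccacg
Counting positions from 1 at the 5′ end, bta-miR-23a and bta-miR-23b-3p differ by U19A and are the same at the other 21 of 22 shared positions. The difference between bta-miR-27a-3p and bta-miR-27b is C19U, with the other 19 of 20 shared positions the same. Within the seed, miR-23 and miR-27 differ by U7G. The single other miRNA of the table with a member's seed is bta-miR-10174-3p, which has the letters of bta-miR-23b-3p and 1 more base at its 3′ end. Its count was between 1 and 1.06 times that of bta-miR-23b-3p in every library, so the level of bta-miR-23b-3p holds reads that cannot be assigned to one of the names, whether they were divided between both or counted for each. Counts that were not whole stood in 9 to 16 of the 18 libraries for each member.

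All 5 members were abundant. Levels are given in CPM, the authors' scaling of each count to its library's total miRNA count, so a value can move when other miRNAs do. Together the members held a mean of 3.56% of the miRNA counts of an EX library and 3.10% of those of an FC library. bta-miR-23a ranked 20th of 1071 miRNAs by mean CPM in EX and 23rd in FC, and bta-miR-27b ranked 24th in EX and 22nd in FC. bta-miR-24-3p and bta-miR-27a-3p came next, at ranks 31 and 40 in EX and 38 and 44 in FC. bta-miR-23b-3p was the least abundant, at rank 71 in EX and 76 in FC. Capture of a miRNA in a library depends on its end bases, so the order between members is an order of reads and not of molecules. Of the opposite hairpin arms, bta-miR-23b-5p and bta-miR-27a-5p were listed and stayed under 5 CPM in every library, the filter used below.

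Library totals ran from 991354 to 2778618 counts in EX and from 3615234 to 12088735 in FC. The 30 months libraries held fewer different miRNAs: 258 to 296 were above 0 in EX against 381 to 446 at the earlier ages, and 398 to 452 in FC against 582 to 694. The lower quartile of the counts above 0 was 38.4 to 80.8 in the EX libraries at 30 months against 12 to 19 at 20 and 25 months, and 19 to 31 against 7 to 11.3 in FC. The lowest member count, 1500 for bta-miR-23b-3p in the EX library of steer 3 at 30 months, was 39.1 times that library's lower quartile, and over the EX libraries at 30 months bta-miR-23b-3p stood 24.9 to 39.1 times above it. Reads copied from one molecule were not marked, so errors drawn from counts cover counting only, and the part of these differences in the results at 30 months was not tested. Markers of blood cells moved with age as well. The summed CPM of the lymphocyte miRNAs bta-miR-150 and bta-miR-342 was 13723 to 27464 in EX at 30 months against 113420 to 324690 before, and 14651 to 26926 against 79355 to 230830 in FC. Between 25 and 30 months both lymphocyte miRNAs fell in EX and in FC, and of 3 red cell miRNAs bta-miR-451 fell in EX (log2 fold change -2.20 ± 0.51), while in FC it stood at -1.68 ± 0.52 (FDR = 0.0516). The other red cell miRNAs did not pass, bta-miR-486 at -0.04 in EX and 0.41 in FC and bta-miR-144 at -1.76 and -0.56. The 2 miRNAs listed as myeloid did not move alike. bta-miR-142-5p fell in EX (-1.96 ± 0.35), as both lymphocyte miRNAs did, while in FC it stood at -1.20 ± 0.38 (FDR = 0.0558). bta-miR-223 did not pass in either fraction, at -0.23 in EX and 0.67 in FC (FDR = 0.797 and 0.245). Whether the fall of bta-miR-142-5p came from myeloid cells or from lymphocytes was not tested. Of 2 liver cell miRNAs bta-miR-885 fell in FC and was not called in EX (-3.56 ± 2.86), while bta-miR-122 stood at 1.04 ± 0.46 in EX and 0.72 ± 0.46 in FC (FDR = 0.165 and 0.287). Whether these changes differed between the fractions is not reported here. None of the 4 vessel wall miRNAs or the 3 muscle miRNAs passed the test in either fraction between 25 and 30 months. Between 20 and 30 months the vessel wall miRNA bta-miR-126-3p rose in EX (1.36 ± 0.28, FDR = 0.0149), where no member passed, and stood at 0.72 ± 0.50 in FC (FDR = 0.37). The other 3 vessel wall miRNAs did not pass in EX, at 0.78 for bta-miR-126-5p, 0.28 for bta-miR-143 and -0.54 for bta-miR-145. No marker was at 0 in all libraries of a group. The part of cell-derived RNA in the levels below was not tested.

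In EX plasma, bta-miR-23a stood at 17389, 9512 and 11751 CPM in steers 1, 2 and 3 at 20 months. It stood at 13954, 13754 and 7676 CPM at 25 months and at 9486, 10922 and 9867 CPM at 30 months. The values at 30 months overlapped those of both earlier ages. In FC plasma its CPM was 12630, 8319 and 9998 at 20 months, then 14271, 12948 and 8030 at 25 months, followed by 7527, 8881 and 7498 at 30 months. All 3 steers were lower at 30 than at 25 months in FC, though the ranges overlapped through steer 3.

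The level of bta-miR-23b-3p in EX was 1830, 1112 and 1255 CPM at 20 months, 1934, 1548 and 1054 CPM at 25 months, and 1267, 1611 and 1385 CPM at 30 months. No age stood apart in EX. In FC it was 1287, 1054 and 1012 CPM at 20 months, 2159, 1607 and 1079 CPM at 25 months, and 901, 1047 and 800.0 CPM at 30 months. Its FC values at 30 months lay below all those at 25 months, and below all but that of steer 3 at 20 months.

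For bta-miR-27a-3p the EX values were 7148, 3333 and 4889 CPM at 20 months, 4904, 4755 and 2319 CPM at 25 months, and 5072, 5968 and 6309 CPM at 30 months. All 3 values at 30 months were above those at 25 months, and that of steer 1 at 20 months was above them all. Its FC values were 4480, 3151 and 3385 CPM at 20 months, 4983, 4219 and 2300 CPM at 25 months, and 4450, 4916 and 4310 CPM at 30 months, where the ages overlapped. For bta-miR-27b the EX values were 12878, 7433 and 10034 CPM at 20 months, 10227, 10054 and 5809 CPM at 25 months, and 13838, 9753 and 13854 CPM at 30 months. Its FC values were 11713, 7056 and 9540 CPM at 20 months, 9551, 8249 and 5371 CPM at 25 months, and 13542, 11431 and 13942 CPM at 30 months. In FC the bta-miR-27b values at 30 months were above every value at 25 months and overlapped those at 20 months by one library.

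bta-miR-24-3p ran between 4921 and 10030 CPM in EX at 20 months, between 4013 and 7568 at 25 months and between 7205 and 8311 at 30 months. In FC it ran between 4449 and 8108 CPM at 20 months, between 3724 and 7072 at 25 months and between 4943 and 5522 at 30 months. The sample of steer 3 at 25 months gave the lowest bta-miR-23a, bta-miR-24-3p, bta-miR-27a-3p and bta-miR-27b of its fraction's first 2 ages in both EX and FC. Ordered by mean CPM over the 6 groups, bta-miR-27b was highest in FC at 30 months (12971 ± 1349, SD, n = 3) and lowest in FC at 25 months (7724 ± 2139), while bta-miR-23a was highest in EX at 20 months (12884 ± 4059) and lowest in FC at 30 months (7969 ± 791). Neighbours in that order differed by less than the larger SD of the pair for all of the members, except that the lowest group of bta-miR-23a and of bta-miR-23b-3p, FC at 30 months in both, lay further below its neighbour.

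**Figure D1:**
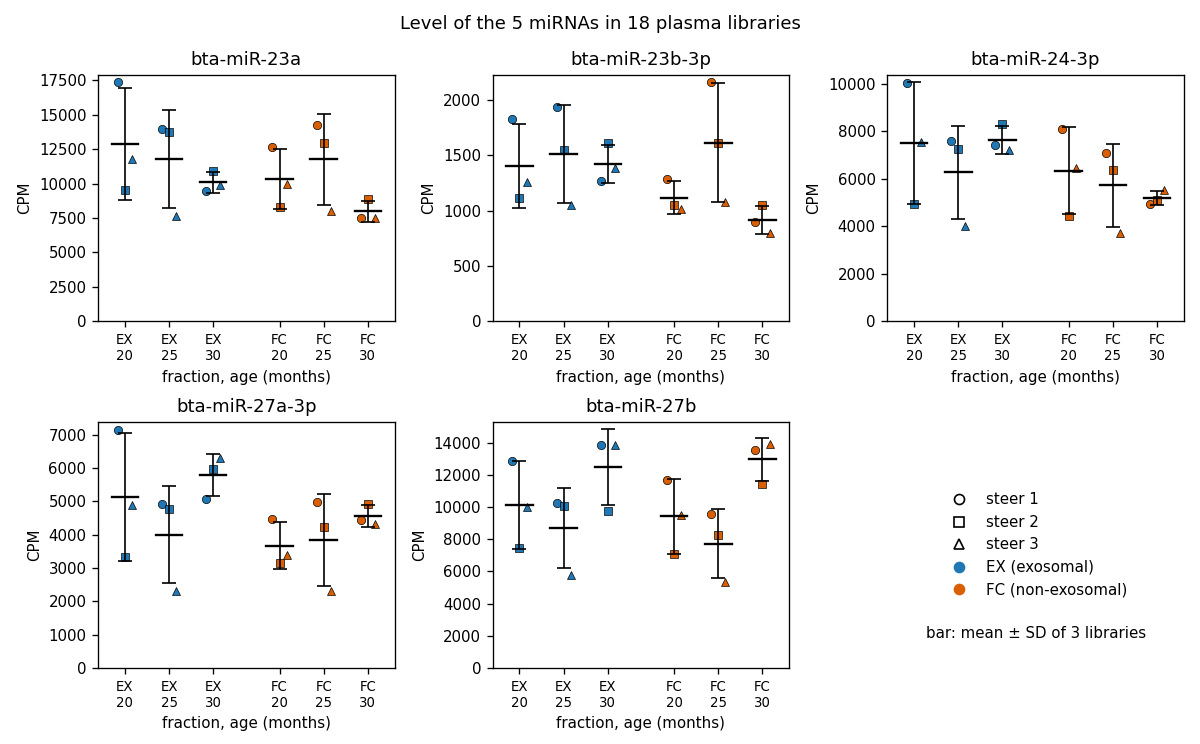
CPM (linear axis) of each miRNA by fraction and age in months; symbols are steers, and black bars are the mean ± SD of 3 libraries. In FC, bta-miR-27b at 30 months sits between 11431 and 13942 CPM, above the 25 months libraries, and bta-miR-23b-3p sits between 800.0 and 1047 CPM, below them.

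The comparison of ages asked which members changed during fattening. In FC plasma bta-miR-23b-3p fell between 25 and 30 months, the only one of the 5 members past an FDR of 0.05 (edgeR quasi-likelihood test with steer in the model, Benjamini-Hochberg over the 358 miRNAs tested). Its log2 fold change was -0.89 ± 0.21 (SE, n = 3 steers, FDR = 0.0261), lower in 3 of 3 steers and short of the study's limit of 1 on the log2 scale. In this comparison 18.7% of all miRNAs tested passed the FDR, so 1 of 5 is near the background. bta-miR-23a had a log2 fold change of -0.64 ± 0.22 (FDR = 0.0742) and bta-miR-27b one of 0.66 ± 0.22 (FDR = 0.0691), the first lower and the second higher in 3 of 3 steers. bta-miR-27a-3p stood at 0.20 ± 0.22 and bta-miR-24-3p at -0.21 ± 0.24 (FDR = 0.533 and 0.552). Without steer 1, 2 or 3 the log2 fold change of bta-miR-23b-3p ran from -0.97 to -0.73 and its FDR from 0.0963 to 0.13, so no subset of 2 steers gave the call. By library totals alone it was -0.77 (FDR = 0.0644).

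The study's qPCR control bta-miR-93, used as 1 of the scalings, did not pass the test but was itself higher at 30 months in mean CPM. It was at 11388 ± 3259 CPM at 25 months and 20044 ± 5769 at 30 months in EX (log2 fold change 0.37 ± 0.30, FDR = 0.469), and at 11944 ± 1966 and 19049 ± 4006 CPM in FC (0.54 ± 0.21, FDR = 0.102).

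No overlap between the 25 and 30 months CPM values was seen for bta-miR-23b-3p, lower, and bta-miR-27b, higher, in FC. Such separation was found downward in 21.8% and upward in 20.7% of the miRNAs tested there, so it is common in this comparison. In EX the bta-miR-27a-3p values at 30 months also lay above those at 25 months, as did those of 18% of the miRNAs tested.

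In EX plasma none of the 5 members passed the FDR between 25 and 30 months, where 14.8% of the 345 miRNAs tested did. bta-miR-23a, at a log2 fold change of -0.64 ± 0.23 (FDR = 0.112), was the only member with an unadjusted p under 0.05, which 102 of the 345 miRNAs had. DESeq2 called bta-miR-23a (1 of 5). bta-miR-23b-3p stood at -0.51 ± 0.22 (FDR = 0.165), bta-miR-24-3p at -0.13 ± 0.24, bta-miR-27a-3p at 0.14 ± 0.27 and bta-miR-27b at 0.08 ± 0.24 (FDR = 0.79, 0.796 and 0.869). The median log2 fold change of all miRNAs was -0.51 in EX and -0.20 in FC, so against it bta-miR-27b lay higher by 0.59 in EX and 0.86 in FC, and bta-miR-27a-3p by 0.65 and 0.40. bta-miR-23b-3p lay at the median in EX and at -0.70 from it in FC.

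**Figure D2:**
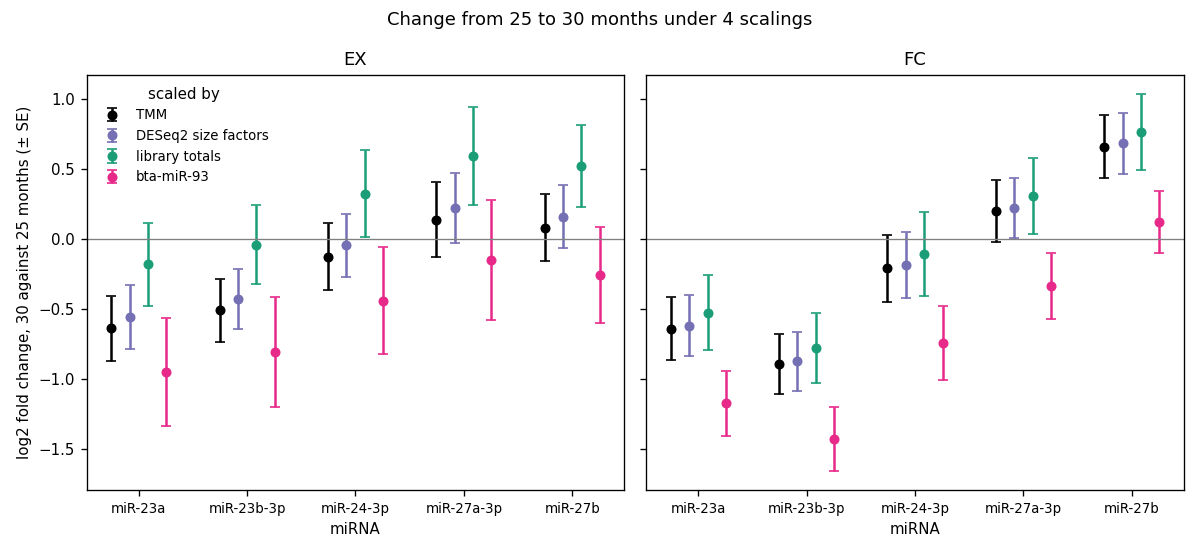
log2 fold change from 25 to 30 months (± SE, 3 steers) of each miRNA in EX and FC, with the libraries scaled by TMM, by DESeq2 size factors, by library totals and by bta-miR-93. Under all 4 scalings both miR-23 members lie below 0 and below both miR-27 members, while the sign of bta-miR-24-3p turns in EX by library totals, that of bta-miR-27a-3p turns with scaling to bta-miR-93 in both fractions and that of bta-miR-27b in EX.

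Between 20 and 25 months no member passed the FDR by edgeR in either fraction, and DESeq2 called none. At an unadjusted p under 0.05 there were none in EX and 1 in FC, bta-miR-23b-3p at a log2 fold change of 0.62 ± 0.21 (FDR = 0.999). Over all miRNAs tested, 8 of 345 in EX and 13 of 358 in FC had such a p. The FDR was passed by 0.29% of them in EX and 0.0% in FC. Between 20 and 30 months the counts were also 0 of 5, beside 14.2% of all miRNAs in EX and 7.26% in FC. There bta-miR-23a alone had an unadjusted p under 0.05, in EX (log2 fold change -0.66 ± 0.23, FDR = 0.103), where DESeq2 called it, while DESeq2 called none in FC. Such a p was had by 106 of 345 miRNAs in EX and by 104 of 358 in FC. The comparisons with 25 and with 20 months share the 30 months libraries.

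A ratio of 2 members within a library does not depend on how the library is scaled. The ratio of bta-miR-27a-3p to bta-miR-23a, whose hairpins are neighbours, lay above its earlier range at 30 months in both fractions. In EX it was 0.411, 0.350 and 0.416 in steers 1, 2 and 3 at 20 months, then 0.351, 0.346 and 0.302 at 25 months, followed by 0.535, 0.546 and 0.639 at 30 months. In FC it was 0.355, 0.379 and 0.339 at 20 months, then 0.349, 0.326 and 0.286 at 25 months, followed by 0.591, 0.553 and 0.575 at 30 months. Every value at 30 months exceeded every earlier value, in EX and in FC. Such separation was common: over all pairs of the 189 common miRNAs above 0 in every library, the ratio at 30 months stood apart from all earlier values in 33.6% of pairs in EX, 36.5% in FC and 20.1% in both with the same direction. Of the 10 pairs of members, 3 stood apart in EX, 6 in FC and 2 in both, which is near that background in EX and in both.

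Against the mean of 20 and 25 months, the log2 ratio of bta-miR-27a-3p to bta-miR-23a at 30 months was higher by 0.66 ± 0.18 (SD, n = 3 steers) in EX and by 0.76 ± 0.11 in FC, 1.59-fold and 1.70-fold. The exact two-sided permutation test over the 27 ways to choose 1 age in each steer gave p = 0.037 in both fractions, the smallest it can give with 3 steers. Adjusted over the 15 ratio tests made, each was 0.185, so neither passes the correction. Leaving out 1 steer gave differences of 0.57 to 0.75 in EX and of 0.70 to 0.82 in FC.

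The ratio of bta-miR-27b to bta-miR-23b-3p, the neighbours of the other cluster, was also higher at 30 months, most clearly in FC. In FC it was 9.10, 6.69 and 9.43 at 20 months, then 4.42, 5.13 and 4.98 at 25 months, followed by 15.03, 10.92 and 17.43 at 30 months. The 3 values at 30 months were again the highest, and the mean log2 difference was 1.16 ± 0.24 (exact permutation p = 0.0741, adjusted 0.222). In EX it was 7.04, 6.68 and 7.995 at 20 months, then 5.29, 6.49 and 5.51 at 25 months, followed by 10.92, 6.06 and 10.003 at 30 months. Steer 2 was below its own earlier values in EX, and the log2 difference there was 0.44 ± 0.50 (exact permutation p = 0.222, adjusted 0.324). With the counts of bta-miR-10174-3p added to bta-miR-23b-3p the differences were 1.17 in FC and 0.43 in EX.

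Summed by seed, the miR-27 pair was 0.931 to 1.15 times the miR-23 pair in the EX libraries at 20 and 25 months and 1.25 to 1.79 times at 30 months. In FC it was 0.842 to 1.17 times before and 1.65 to 2.20 times at 30 months. These sums leave out bta-miR-10174-3p, which has the miR-23 seed. With it added to the miR-23 pair, the miR-27 pair was 0.828 to 1.05 times in EX and 0.753 to 1.07 times in FC at the earlier ages, and 1.11 to 1.59 times in EX and 1.49 to 2.01 times in FC at 30 months. Either way the miR-27 pair was the larger in all 6 libraries at 30 months. Without bta-miR-10174-3p it was also the larger in every library at 20 months, at 1.01 to 1.15 times in EX and 1.09 to 1.17 times in FC. At 25 months it was the smaller in every library, at 0.931 to 0.968 times in EX and 0.842 to 0.885 times in FC. The sum of all 5 members differed between ages by less than the SD of the earlier ages. It was 3.70 ± 1.16% of the counts at 20 months, 3.23 ± 0.99% at 25 months and 3.74 ± 0.11% at 30 months in EX, and 3.09 ± 0.71%, 3.06 ± 0.91% and 3.16 ± 0.04% in FC.

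**Figure D3:**
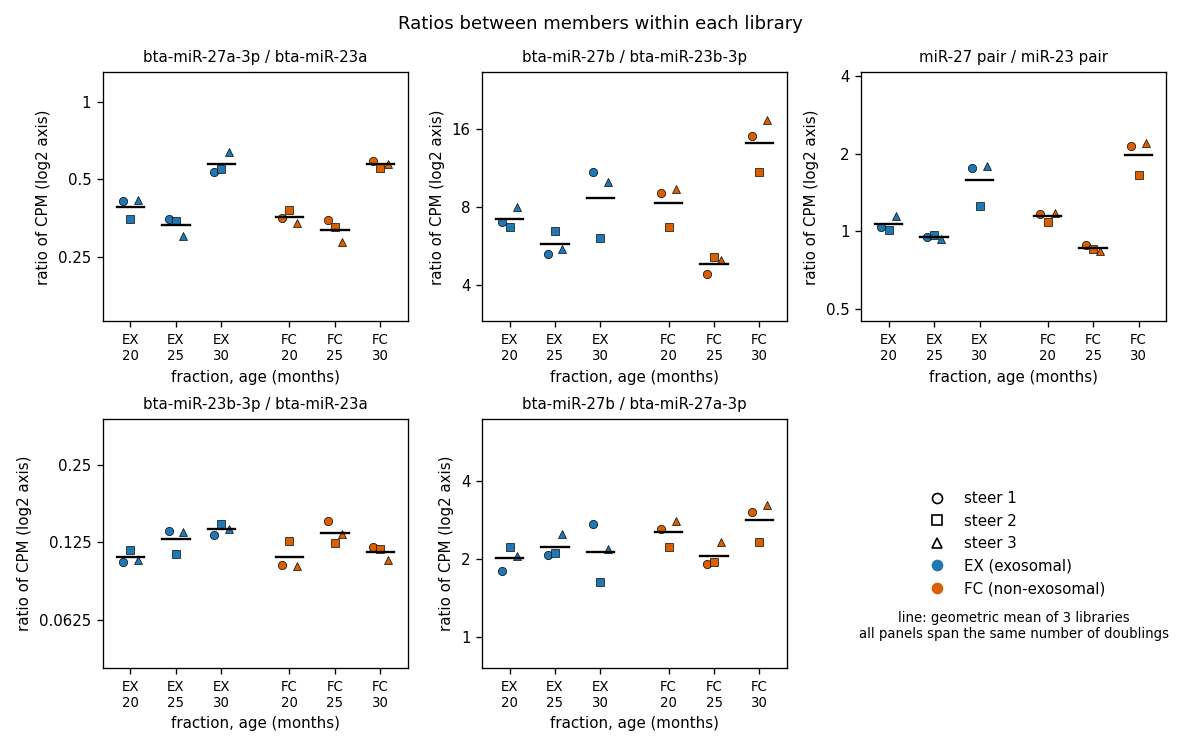
Ratios of CPM between members within each library (log2 axis, same number of doublings in each panel) by fraction and age in months; symbols are steers and lines geometric means of 3 libraries. The ratio of bta-miR-27a-3p to bta-miR-23a lies between 0.286 and 0.416 in all libraries of 20 and 25 months and between 0.535 and 0.639 at 30 months.

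The ratios within a seed pair at 30 months overlapped those before. The ratio of bta-miR-23b-3p to bta-miR-23a lay between 0.101 and 0.151 over all 18 libraries, and its log2 difference at 30 months was 0.24 ± 0.11 in EX and -0.09 ± 0.04 in FC (exact permutation p = 0.185 and 0.63). The ratio of bta-miR-27b to bta-miR-27a-3p lay between 1.63 and 3.24. At 30 months it differed by 0.01 ± 0.45 on the log2 scale in EX and by 0.31 ± 0.15 in FC (exact permutation p = 0.889 and 0.0741). Against bta-miR-24-3p, bta-miR-23a was 1.56 to 1.93 times in EX at 20 and 25 months and 1.28 to 1.37 times at 30 months. In FC the same ratio overlapped, at 1.55 to 2.16 before and 1.36 to 1.74 at 30 months. bta-miR-27b was 1.30 to 1.59 times bta-miR-24-3p in FC at 20 and 25 months and 2.24 to 2.74 times at 30 months. In EX it was 1.28 to 1.51 times before and 1.17 to 1.92 times at 30 months, with steer 2 at 30 months below every earlier library.

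At the earlier ages the CPM of the members varied together from library to library. Over the 12 libraries of 20 and 25 months, Pearson's r of log2(CPM + 1) between pairs of members ran from 0.594 for bta-miR-23b-3p with bta-miR-27b to 0.984 for bta-miR-24-3p with bta-miR-27b. Over all 18 libraries bta-miR-27b correlated at 0.214 with bta-miR-23a and at 0.0685 with bta-miR-23b-3p, against 0.819 with bta-miR-27a-3p. These libraries share steers, plasma samples and depth by age, so the coefficients describe the data and carry no test. A change in other abundant miRNAs moves the CPM of all members together. The part of this in the coefficients was not tested, and the range over all other pairs of miRNAs is not given. Among 145 other miRNAs with a mean of at least 100 CPM, the one most like bta-miR-24-3p over the 18 libraries was bta-miR-221 (r = 0.967), the one most like bta-miR-27a-3p was bta-miR-1388-3p (0.931), and the one most like bta-miR-27b was bta-miR-10a (0.874). After bta-miR-10174-3p, bta-miR-145 was most like bta-miR-23a (0.831) and bta-miR-15a most like bta-miR-23b-3p (0.804).

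The comparison of fractions within a plasma sample asked whether a member was more abundant in exosomal or in non-exosomal RNA. bta-miR-24-3p was higher in EX, by a log2 fold change of 0.19 ± 0.04 over all ages (edgeR quasi-likelihood test with plasma sample as a block, FDR = 0.00853). Its CPM was higher in EX in 9 of 9 plasma samples, by 0.10 to 0.70 on the log2 scale, which held for 4.55% of the 330 miRNAs common to both fractions. It was the only one of the 5 members called, where 26.4% of all miRNAs were, and the call was lost without steer 1 (FDR = 0.106) or steer 2 (FDR = 0.0796). The 9 plasma samples are 3 from each of 3 steers, and this model treats their differences between fractions as independent. bta-miR-23a, bta-miR-23b-3p and bta-miR-27a-3p stood at 0.09 ± 0.04, 0.17 ± 0.06 and 0.16 ± 0.07 (FDR = 0.121, 0.0828 and 0.111), and bta-miR-27b at -0.05 ± 0.05 (FDR = 0.458). Scaled by DESeq2 size factors or library totals, 4 of 5 were called higher in EX, all but bta-miR-27b, beside 25.5% and 24.8% of all miRNAs called in either direction. With no block for plasma sample, or one for steer alone, none was.

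Each age was also tested alone. At 20 months bta-miR-23a and bta-miR-27a-3p were higher in EX (0.32 ± 0.07, FDR = 0.022, and 0.45 ± 0.12, FDR = 0.0391), each in 3 of 3 plasma samples, beside 9.39% of all miRNAs called. Both calls were lost without any 1 steer (FDR from 0.118 to 0.227 and from 0.0747 to 0.399), with no block or a steer block, without the filter, scaled to bta-miR-93, with deposited rows and with another reference library for TMM. That of bta-miR-23a was also lost by the likelihood ratio test and that of bta-miR-27a-3p by library totals. At 25 months no member was called beside 6.67% of all miRNAs. An unadjusted edgeR p under 0.05 was reached by bta-miR-24-3p and bta-miR-27b, and by 56 of the 330 miRNAs tested. DESeq2 called 2 members, and the share of all miRNAs it called is not given. At 30 months bta-miR-27b was lower in EX (-0.52 ± 0.09, FDR = 0.00244), the only member called beside 27.6% of all miRNAs, whose median was -0.74. The other 4 were not called, at -0.11 for bta-miR-23a, -0.11 for bta-miR-27a-3p, 0.18 for bta-miR-23b-3p and 0.10 for bta-miR-24-3p (FDR from 0.241 to 0.475). In CPM those 4 members were higher in EX in 3 of 3 plasma samples at 30 months, by means of 0.34 for bta-miR-23a, 0.64 for bta-miR-23b-3p, 0.56 for bta-miR-24-3p and 0.34 for bta-miR-27a-3p on the log2 scale. So the direction of bta-miR-23a and bta-miR-27a-3p turns with the scaling. The share of all miRNAs higher in EX in 3 of 3 is not given, and their median there by library totals was -0.32. By library totals bta-miR-23a, bta-miR-23b-3p and bta-miR-24-3p were called higher in EX (FDR = 0.0133, 0.00408 and 0.00157) and bta-miR-27b was not called (FDR = 0.419), beside 27.9% of all miRNAs called. In CPM, bta-miR-27b at 30 months differed between EX and FC by a mean of -0.07 on the log2 scale and was higher in EX in 1 of 3 plasma samples. Across the 11 other settings that kept all steers, it ran from -0.52 to -0.09 and passed the FDR in 7.

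The test of whether the change with age differed between the fractions called bta-miR-27b from 25 to 30 months, beside 13.3% of all miRNAs. It called bta-miR-23a, bta-miR-27a-3p and bta-miR-27b from 20 to 30 months, beside 18.5%. These differences, given with the flagged results, were lower in EX. By library totals 2 other members were called from 25 to 30 months, bta-miR-23b-3p (0.70, FDR = 0.0263) and bta-miR-24-3p (0.41, FDR = 0.0452), both higher in EX, and bta-miR-27b was not (-0.25, FDR = 0.201), beside 10.6% of all miRNAs. With TMM they were not called, at 0.19 (FDR = 0.479) and -0.10 (FDR = 0.539), so the direction of bta-miR-24-3p turns. With no block, or a steer block, no member was called.

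**Figure D4:**
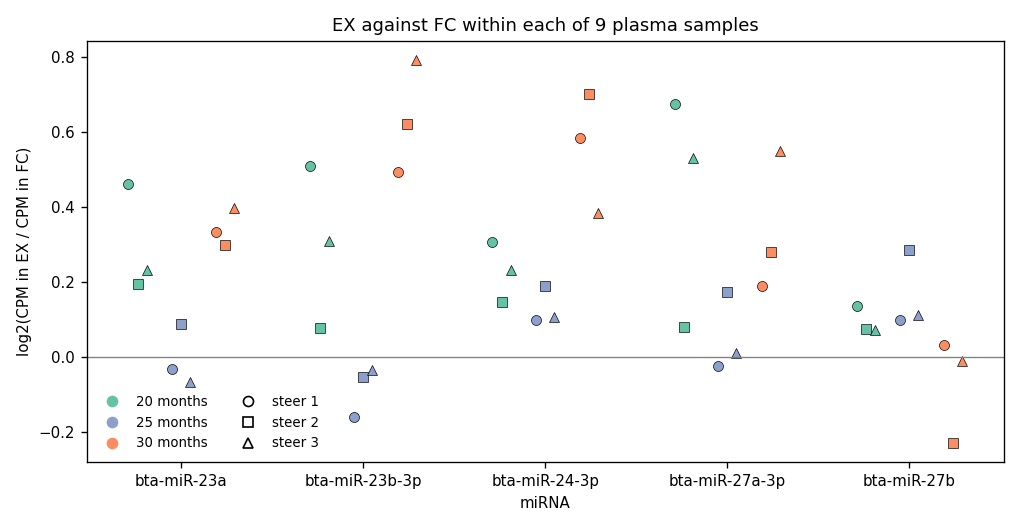
log2 ratio of the CPM in EX to the CPM in FC for each of 9 plasma samples, by miRNA; colours are ages and symbols steers. bta-miR-24-3p lies above 0 in all 9 samples, and bta-miR-27b ranges from -0.23 to 0.29.

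bta-miR-23a is also the usual denominator of an index of red cell breakage in plasma, with the red cell miRNA bta-miR-451 above it. In these plasma samples the ratio of bta-miR-451 to bta-miR-23a was higher in EX than in FC in 9 of 9 plasma samples, by 0.67 ± 0.40 on the log2 scale (exact sign-flip p = 0.0039, the smallest it can give, adjusted 0.0586). That test treats the 9 samples as independent although they are 3 from each of 3 steers. With signs flipped by steer, 3 of 3 were higher in EX and the exact p was 0.25, the smallest 3 steers can give. In EX it ran from 0.744 to 3.08 at 20 and 25 months and from 0.539 to 0.862 at 30 months, with overlap (difference -1.24 ± 0.28 on the log2 scale, exact permutation p = 0.148). In FC it ran from 0.289 to 1.62 before and from 0.423 to 0.759 at 30 months (difference -0.78 ± 0.88, higher in 1 of 3 steers, exact permutation p = 0.259). The CPM of bta-miR-451 itself lay between 12461 and 43037 in EX at the earlier ages and between 5882 and 8502 at 30 months, and in FC between 3652 and 20781 and between 3757 and 5717, with overlap.

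Other plasma miRNAs with a known part in fat-cell formation moved in both directions between 25 and 30 months. Of 15 miRNAs known to favour it, 3 rose in EX (4.06% of all miRNAs tested rose and 10.7% fell), namely bta-miR-375 (log2 fold change 1.598 ± 0.21), bta-miR-210 (1.93 ± 0.52) and bta-miR-148a (0.83 ± 0.21), and 3 fell, namely bta-miR-26a (-1.77 ± 0.39), bta-miR-20a (-1.06 ± 0.21) and bta-miR-26b (-1.02 ± 0.28). In FC, where 6.98% of all rose and 11.7% fell, 2 of the 15 rose, bta-miR-148a (0.96 ± 0.23) and bta-miR-375 (0.78 ± 0.23), and 3 fell, bta-miR-26a (-1.498 ± 0.40), bta-miR-107 (-0.90 ± 0.23) and bta-miR-20a (-0.88 ± 0.25). Their median was -0.15 in EX and 0.10 in FC. Of 11 others known to restrain fat-cell formation, bta-miR-130a (1.43 ± 0.28) and bta-miR-130b (2.25 ± 0.37) rose and bta-let-7g (-1.22 ± 0.33) and bta-miR-155 (-1.67 ± 0.45) fell in EX. In FC, bta-let-7g (-1.63 ± 0.35) and bta-miR-155 (-1.33 ± 0.38) fell and none rose. There bta-miR-130a stood at 0.70 ± 0.23 and bta-miR-130b at 0.79 ± 0.27 (FDR = 0.0612 and 0.0691). The median of the 11 was -0.35 in EX and -0.73 in FC, beside medians of -0.51 and -0.20 over all miRNAs tested. Most of the 11 were let-7 miRNAs, and these medians are the values of bta-let-7c in EX and bta-let-7d in FC. Each call here is an FDR under 0.05 in the edgeR test above.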

How the data were processed

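The authors trimmed the reads with Cutadapt 5.0 and Trimmomatic 0.39, kept 15 to 51 bp, checked them with FastQC 0.12.1, mapped them with miRDeep2 to a Japanese Black genome built on the ARS-UCD assembly, and counted mature miRNAs of miRBase. The deposited count table holds expected counts, since many are not whole numbers. The deposited CPM table holds the authors' CPM from edgeR 4.0.16.

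The counts and CPM of 4 FC libraries were offset by 1 row in their lower rows. Counts further from CPM times total than 0.001 of the value or 0.02 counts were recomputed from the CPM, and 0 counts of the members were affected. Counts were rounded, filtered at a CPM above 5 in at least 3 of 9 libraries, normalized by TMM and tested in edgeR 4.0.16 (quasi-likelihood) with R 4.3.3. Ages were compared within a fraction with steer in the model, and fractions with plasma sample as a block over the 330 common miRNAs. The libraries carry replicate numbers 1 to 3, and the study sampled the same 3 animals throughout and paired its own tests, so numbers pair the samples. "Rose" and "fell" mean an FDR under 0.05, adjusted over all miRNAs tested. Ratios used counts and exact permutation tests, adjusted over 15 tests. Standard errors are the log2 fold change over the root of the test statistic. The scripts were tested on simulated data.

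DESeq2 1.42.0, other scalings, filters, blocks and leaving out each steer were alternatives. The members, the lists of miRNAs and the markers were chosen with earlier results of these data known. The named miRNAs are the members, their opposite arms, seed sharers, the 3 most alike by Pearson's r, the study's qPCR control bta-miR-93 and bta-miR-451. Of the lists, the called miRNAs and some given beside them are named. Tables used Python 3.11.15, numpy 2.4.6 and pandas 2.3.3, and figures matplotlib 3.10.9. RefSeq neighbours were read from ARS-UCD2.0 by name and not by coordinates. Markers of red cells, lymphocytes, myeloid cells, vessel wall, liver cells and muscle were listed as well.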

Additional observations from a re-analysis of the deposited data

Results flagged for a closer look

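The change with age of some members differed between EX and FC, by the test of the difference itself in edgeR (plasma sample as a block, Benjamini-Hochberg over 330 miRNAs). From 25 to 30 months the change of bta-miR-27b was lower in EX than in FC by -0.76 ± 0.12 on the log2 scale (FDR = 0.00545), where 13.3% of all miRNAs were called. In CPM it was higher at 30 months in 3 of 3 steers in FC and in 2 of 3 in EX. From 20 to 30 months the change was lower in EX by -0.43 ± 0.10 for bta-miR-23a (FDR = 0.0225), by -0.57 ± 0.16 for bta-miR-27a-3p (FDR = 0.0438) and by -0.64 ± 0.12 for bta-miR-27b (FDR = 0.0136), where 18.5% of all miRNAs were called. Both comparisons share the 30 months libraries.

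The median difference of all miRNAs was -0.61 from 25 to 30 months and -0.64 from 20 to 30 months. bta-miR-27b lay at -0.15 from that median in the first comparison, and in the second bta-miR-23a lay above it by 0.21, bta-miR-27a-3p by 0.08 and bta-miR-27b by 0.0037. Over the 11 other settings with all steers, that of bta-miR-27b from 25 to 30 months ran from -0.76 to -0.25 and passed the FDR in 5. From 20 to 30 months, that of bta-miR-27b passed in 3 and those of bta-miR-23a and bta-miR-27a-3p in 1 each.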

How the results depend on the processing

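The higher ratio of bta-miR-27a-3p to bta-miR-23a at 30 months kept its direction in EX and FC under every alternative run, including leaving out each steer. Of the other ratios, that of bta-miR-27b to bta-miR-27a-3p in EX turned from 0.01 to -0.046 with the median over steers, and ran from -0.23 without steer 1 to 0.22 without steer 2.

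The number of members called is given here without the share of all miRNAs called, which is given above for the main test and some settings only. It therefore shows how the calls moved and not whether members were called more often than other miRNAs. Changes of age in EX gave 1 by DESeq2 at 30 against 25 and at 30 against 20 months. In FC at 30 against 25 months the number of members called was 0 by library totals, 0 with the count rows as deposited, 2 scaled to bta-miR-93, 3 by the likelihood ratio test, 3 by DESeq2 and 0 to 0 without 1 steer. Between EX and FC over all ages it was 4 by DESeq2 size factors, library totals, DESeq2 and deposited rows, and 0 to 1 without 1 steer. At 20 months it was 1 by library totals and the likelihood ratio test, 4 by DESeq2, and 0 scaled to bta-miR-93, without the filter, with deposited rows, with another TMM reference and without any 1 steer. At 25 months it was 2 by DESeq2. At 30 months it was 3 by library totals (bta-miR-23a, bta-miR-23b-3p and bta-miR-24-3p, higher in EX) and 3 by DESeq2 size factors, DESeq2 and deposited rows (bta-miR-23b-3p and bta-miR-24-3p higher, bta-miR-27b lower), and 0 scaled to bta-miR-93 or without the filter. For the difference in change between fractions at 30 against 25 months it was 2 by library totals (bta-miR-23b-3p and bta-miR-24-3p, higher in EX), 0 scaled to bta-miR-93, without the filter and with another TMM reference, and 0 to 1 without 1 steer. At 30 against 20 months the settings below the main test included DESeq2, at 1, and size factors, totals, bta-miR-93, no filter, deposited rows, another reference and leaving out any 1 steer, all at 0. For that comparison, the number of settings in which each member passed is given with the flagged results.

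With no replicate block, that is with neither steer nor plasma sample paired, 0 members were called between EX and FC over all ages, at 20 and at 30 months, and 0 in both differences between fractions. With steer alone as the replicate block it was 0 over all ages, at 20 months and in both differences. Without the steer block bta-miR-23b-3p in FC at 30 against 25 months stood at -0.89 (FDR = 0.0178).

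Direction turned for these single members. At 30 against 25 months in EX, bta-miR-24-3p was 0.32 by library totals. Scaled to bta-miR-93, whose own mean CPM was higher at 30 months, bta-miR-27a-3p was -0.15 and bta-miR-27b -0.26 in EX, and bta-miR-27a-3p -0.33 in FC. Leaving out 1 steer in EX, bta-miR-27a-3p ran from -0.14 without steer 3 to 0.27 without steer 1, and bta-miR-27b from -0.15 without steer 3 to 0.32 without steer 2. Between EX and FC over all ages, bta-miR-27b was 0.05003 by size factors, 0.0510 by totals, 0.0501 by DESeq2, 0.15 scaled to bta-miR-93 and 0.0135 with deposited rows. At 30 months bta-miR-23a and bta-miR-27a-3p turned from -0.11 each to 0.149 and 0.146 by size factors, 0.318 and 0.315 by totals, 0.283 and 0.280 scaled to bta-miR-93, 0.117 and 0.114 without the filter, 0.150 and 0.146 by DESeq2, 0.119 and 0.116 with deposited rows and 0.0808 and 0.0775 with another TMM reference. Leaving out 1 steer they ran from -0.16 to 0.0512 and from -0.25 to 0.12. By totals the difference in change at 30 against 25 months turned from -0.18 to 0.33 for bta-miR-23a, from -0.10 to 0.41 for bta-miR-24-3p and from -0.24 to 0.27 for bta-miR-27a-3p. bta-miR-23a and bta-miR-24-3p turned as well, to between 0.0409 and 0.27, by size factors, DESeq2, bta-miR-93, no filter, deposited rows and another reference, and bta-miR-27a-3p did so with bta-miR-93 (0.13) and another reference (0.0425). The difference in change of bta-miR-23a at 30 against 20 months, called in the main test, was 0.0267 by totals. The cause was not tested in any of these. Deposited rows, another TMM reference and the added bta-miR-10174-3p counts were chosen after seeing the data.

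With 3 steers no exact test of age can go below 0.037. The p-values of the age tests measure the spread of these 3 animals. Those between EX and FC by plasma sample, and those of the difference in change, treat samples of the same steer as independent. They therefore do not measure the spread between animals. Flipping signs by steer, chosen after seeing the data, gave p of 0.25 to 0.5 for the ratios between EX and FC, where 0.25 is the smallest possible.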
